A study of Mus musculus with 6 samples.

Results

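Genes of the blood vessel wall in brain tissue were followed in mice given ethanol or saline as newborns. The list held 33 genes known from endothelial cells, which line the vessels, and from mural cells, the pericytes and smooth muscle cells that wrap them. A gene was represented by the probe row that names it alone and, where several rows did, by the row with the highest mean over the arrays. This gave 32 genes, 21 endothelial and 11 mural, out of 22180 genes with such a row, and no row naming Ly6a alone was used here. The RNA came from tissue that the labels call whole hippocampus, and 6 Affymetrix arrays with probes along the whole transcript were used. All mice were male C57BL/6J, an inbred laboratory strain, and each array carried RNA pooled from 3 of them. In the ethanol group (3 arrays) pups received subcutaneous ethanol, 2.5 g/kg dissolved in 0.15 M NaCl, 2 times at an interval of 2 hours, on postnatal days 4 and 7. In the saline group (3 arrays) littermates were injected with saline on that schedule, and which arrays share litters is not stated. Age at dissection is given as 21 days in the sample characteristics and as day 70 in the treatment protocol, for both groups alike.

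As background, brain endothelial cells are sealed to each other by tight junctions and carry dedicated transporters, which together form the blood-brain barrier. VEGF and angiopoietin signals act on them through receptor tyrosine kinases. PDGF from the endothelium draws in pericytes, and Notch signalling keeps mural cells in their state. Smooth muscle cells of arterioles contract through actin and myosin and set blood flow.

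Of the 33 genes, 24 had a promoter in the RefSeq table of the mouse build GRCm38.p6, each taken as the 250 bases before an annotated transcript start. Tagln was not among them. The stretches below are shown because they belong to the mural gene with the largest positive difference (Rgs5), to contractile genes listed beside Tagln (Acta2 and Myl9) and to an endothelial receptor (Flt1). Bases run 5′ to 3′ along the gene. In Rgs5, Acta2 and Myl9 capitals mark the CArG box, the letters to which serum response factor binds, with at most 1 G or C allowed inside its A and T core, and Rgs5 holds none. In Flt1 capitals mark AGGAAG, letters that many ETS factors recognize.
Rgs5 (chr1:169655251-169655500, plus strand): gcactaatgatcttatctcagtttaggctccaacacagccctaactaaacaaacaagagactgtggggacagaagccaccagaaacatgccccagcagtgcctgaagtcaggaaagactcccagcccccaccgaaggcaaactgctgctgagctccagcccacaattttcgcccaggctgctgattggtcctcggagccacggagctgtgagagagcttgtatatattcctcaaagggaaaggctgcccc
Acta2 (chr19:34255374-34255623, minus strand): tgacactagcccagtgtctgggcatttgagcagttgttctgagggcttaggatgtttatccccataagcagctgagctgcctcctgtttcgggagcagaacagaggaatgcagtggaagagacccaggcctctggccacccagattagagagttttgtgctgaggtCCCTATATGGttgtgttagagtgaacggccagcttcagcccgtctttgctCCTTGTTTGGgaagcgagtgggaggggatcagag
Myl9 (chr2:156775214-156775463, plus strand): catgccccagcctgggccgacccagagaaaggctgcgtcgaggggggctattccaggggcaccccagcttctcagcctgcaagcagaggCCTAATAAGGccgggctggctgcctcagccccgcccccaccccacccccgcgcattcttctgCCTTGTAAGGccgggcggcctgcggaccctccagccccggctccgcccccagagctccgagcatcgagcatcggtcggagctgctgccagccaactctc
Flt1 (chr5:147726012-147726261, minus strand): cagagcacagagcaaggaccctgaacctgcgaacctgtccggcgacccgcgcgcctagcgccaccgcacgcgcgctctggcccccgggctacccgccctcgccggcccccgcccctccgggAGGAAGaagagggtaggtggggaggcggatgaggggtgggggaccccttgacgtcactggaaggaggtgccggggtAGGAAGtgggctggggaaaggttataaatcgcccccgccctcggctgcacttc
Other transcripts of Acta2, Myl9 and Flt1 start elsewhere, since the outer bounds of these genes (19:34240336 to 34255585, 2:156775408 to 156781657 and 5:147561604 to 147726438) reach into or past these windows.

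Both strands were searched. A strict CArG box stood in 1 of the 9 mural genes with a promoter (Myl9) and in 0 of 15 endothelial genes, beside 1.62% of all 27025 genes in the table. A CArG box with 1 G or C inside stood in 2 of 9 mural genes, Acta2 and Myl9, and in 4 of 15 endothelial genes (Egfl7, Kdr, Ocln and Slco1a4), beside 8.33% of all genes. In Acta2 these letters lay 84 to 75 and 34 to 25 bases before the start. AGGAAG stood in 9 of 15 endothelial genes and in 0 of 9 mural genes, beside 32.3% of all genes. A gene with more windows has more room for a match, and the 15 endothelial genes had 21 windows. By window, AGGAAG stood in 10 of these 21 (47.6%), beside 29.5% of all windows. The endothelial genes holding it were Abcb1a, Egfl7, Emcn, Erg, Flt1, Itm2a, Ly6c1, Slco1a4 and Tie1. The promoter table held several windows for 4 of the 24 genes, and each window was searched. The 9 mural genes and Flt1 had 1 window each, so any other starts of theirs were not searched. A match is a run of letters and no measured binding.

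The tissue and the cell label were checked on the levels, which are the values the authors deposited, taken as log2. Different probe rows bind with different strength, so a level does not rank 1 gene against another. Of the 32 vascular genes, 29 read above 6.98, the 95th percentile of 1088 olfactory receptor genes, which brain tissue mostly leaves silent. Those below it were Tek at 6.81, Sox18 at 6.31 and Ly6c1 at 4.97, and Ly6c1 has a near-identical neighbour, Ly6c2, whose transcripts its probes may also bind. Many of the levels, though not all, went against the hippocampus label. Of 15 hippocampal neuron genes, 8 did not read above that percentile, among them Neurod6 (6.76), Emx1 (6.39) and Emx2 (5.28), and the list's median was 6.76. All 12 cerebellar neuron genes read above it, with a median of 10.87, led by the Purkinje cell genes Car8 (12.44) and Calb1 (12.28) and followed by the granule cell gene Gabra6 (12.17). Of the hippocampal list 7 genes did read above that percentile. They were Neurod2 (10.58), Camk2a (9.76), Wfs1 (8.72), Prox1 (8.18), Grik4 (7.95), Bok (7.79) and Fibcd1 (7.26). The brightest of them, Neurod2 and Camk2a, are also expressed in cerebellar neurons. Whether genes of the cerebellar list, Calb1 among them, are also expressed in hippocampal neurons was not tested. The share of each brain region in this RNA was not tested either. Of the hippocampal list only Fibcd1, a CA1 marker, had an unadjusted p under 0.05, at -0.22 ± 0.08 (SE). In RNA of whole tissue, fewer vessel cells and less RNA per cell cannot be told apart either. Markers of the choroid plexus, which has fenestrated vessels of its own, were also bright, with Ttr between 13.07 and 13.35 over the arrays.

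None of the 32 vessel wall genes passed the test between ethanol and saline. With limma, 0 had an adjusted p under 0.05, where 0% of 22180 genes had one, and 1 (Tagln) had an unadjusted p under 0.05, where 3.18% of genes did. The groups did not overlap for 2 genes, Rgs5 higher and Tagln lower with ethanol, or 6.25% of the list, beside 10.5% of all genes (5.74% apart with ethanol higher, 4.72% with ethanol lower). Both shares were no higher than the background. A looser screen, an unadjusted p under 0.05 with at least a 1.2-fold change, took 0 of the 32 as higher and 0 as lower, beside 0.568% and 1.19% of all genes. Over all 41345 probe rows that screen took 1.4% and 2.65%, and the groups were apart in 11.1%. The median difference, ethanol minus saline, was 0.03 on the log2 scale, with 21 genes above 0 and 11 below, or 65.6% above, where 57.2% of all genes were. Among the 8748 genes of like level, those in the central range of the vascular levels (7.09 to 9.26), the median was 0.04 and 68.4% lay above 0. For 18 of the 32 genes the difference was smaller than its own standard error.

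**Figure D1:**
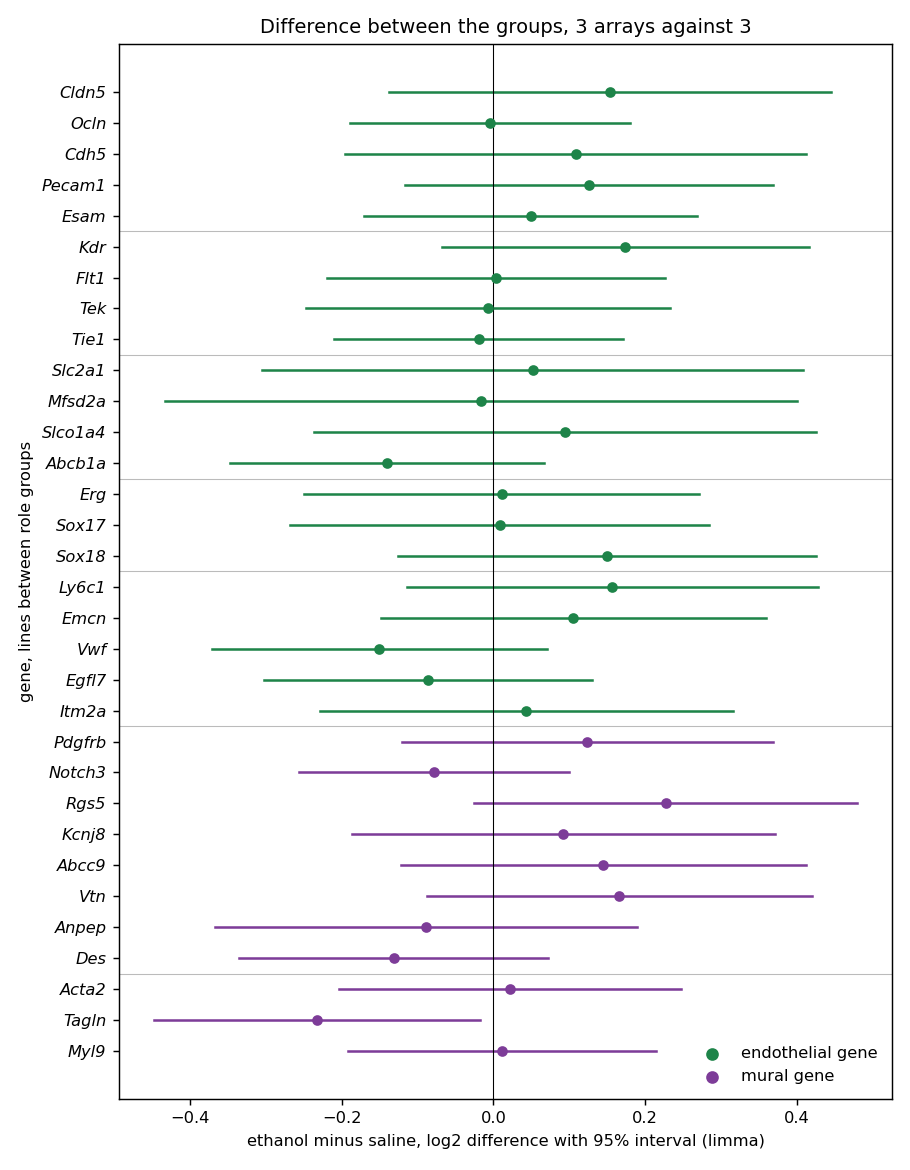
The difference between ethanol and saline (horizontal axis, log2) is drawn for each of the 32 genes (vertical axis, grouped by role) with its 95% interval from limma, for 3 arrays against 3. All intervals but that of Tagln span 0, and the points lie between -0.23 (Tagln) and 0.23 (Rgs5).

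The intervals bound what these arrays leave possible for a single gene. With the row used per gene, the highest upper limit was 0.48 (Rgs5), a 1.39-fold higher level with ethanol. The lowest lower limit was -0.45 (Tagln), or 0.733 times the saline level. The second, dimmer row of Rgs5 reached higher, with an interval from 0.06 to 0.53 that excluded 0. Standard errors ran from 0.08 to 0.18. These limits hold for each gene on its own, at 95%.

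Tight junction and adhesion genes came first in the wall's structure. Cdh5, the cadherin of endothelial junctions, read 9.07, 8.83 and 8.88 on the ethanol arrays and 9.06, 8.67 and 8.71 on the saline arrays. Ethanol array 1 and saline array 1 stood level at the top, and the groups overlapped. The difference was 0.11 ± 0.13 (SE, 3 arrays against 3; adjusted p = 0.902 in limma). Cldn5, the main claudin sealing the brain's vessels, read 8.29, 8.54 and 8.12 with ethanol and 8.26, 8.05 and 8.18 with saline. Here 1 array, ethanol array 2, was high, and the difference was 0.15 ± 0.12. Without that array the Cldn5 difference was 0.04. Pecam1, an adhesion molecule at cell borders, stood at 8.15 ± 0.08 and 8.02 ± 0.16 (SD, n = 3 each). Esam, another adhesion molecule of the border, stood at 7.42 ± 0.09 and 7.37 ± 0.12. Ocln, a tight junction protein, was the steadiest gene of the whole list, with a range of 0.15 over the 6 arrays and a difference of -0.00 ± 0.08. Its 95% interval ran from -0.19 to 0.18. The median difference over the 5 junction genes was 0.11.

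Receptors of vascular growth factors followed. Kdr, the main signalling receptor for VEGF, read 8.14, 8.31 and 8.04 with ethanol and 8.00, 8.09 and 7.87 with saline. Ethanol arrays 1 and 2 lay above every saline array and ethanol array 3 did not. The difference, 0.17 ± 0.10 (SE), was the largest positive value among endothelial genes, and its 95% interval ran from -0.07 to 0.42 (adjusted p = 0.857 in limma). Without ethanol array 2 it was 0.10, below Sox18 (0.19) and Cdh5 (0.16) in that setting. Flt1, a VEGF receptor that mostly acts as a decoy, had the same mean in both groups, 7.86 ± 0.06 and 7.86 ± 0.14 (SD, n = 3 each). Tek, the angiopoietin receptor, stood at 6.81 ± 0.04 and 6.81 ± 0.17. Its partner Tie1 stood at 7.15 ± 0.10 and 7.17 ± 0.03. The intervals of Flt1, Tek and Tie1 all lay within -0.25 and 0.23.

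Of the barrier transporters, Mfsd2a and Slco1a4 had the widest ranges of the list over the 6 arrays. Abcb1a, at 0.31, lay below the list's median range of 0.37. Mfsd2a, which carries lysolipids and holds down vesicle traffic across the endothelium, read 8.87, 9.14 and 8.55 with ethanol and 9.13, 8.77 and 8.71 with saline. Its range of 0.59 was the widest of the list, and the highest and the lowest array both belonged to the ethanol group. The difference was -0.02 ± 0.18 (SE), with a 95% interval from -0.43 to 0.40. Slc2a1, the glucose transporter of the barrier, read 10.17, 10.24 and 9.93 with ethanol and 10.36, 9.94 and 9.88 with saline. Saline array 1 was highest, and the difference was 0.05 ± 0.15. A dimmer row for Slc2a1 went the other way, at -0.10 ± 0.10, with 6.42, 6.44 and 6.63 against 6.48, 6.70 and 6.60. Slco1a4, an organic anion transporter, read 8.76, 8.71 and 8.59 with ethanol and 8.81, 8.30 and 8.67 with saline. Saline array 2 stood low, and the difference was 0.09 ± 0.14. Abcb1a, the drug efflux pump P-glycoprotein, stood at 8.19 ± 0.11 and 8.33 ± 0.06 (SD, n = 3 each), a difference of -0.14 ± 0.09. In Abcb1a the highest array was saline array 1 and the lowest was ethanol array 2.

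Of the transcription factors of endothelial identity, Sox18 had a larger value than Erg and Sox17, and none was called. Erg, an ETS factor, read 7.13, 7.27 and 7.21 with ethanol and 7.39, 7.17 and 7.02 with saline. The saline arrays enclosed all ethanol arrays, and the difference was 0.01 ± 0.11 (SE). Sox17, which acts in arterial endothelium, also differed by 0.01, ± 0.12. Sox18, its relative, read 6.54, 6.30 and 6.30 with ethanol and 6.34, 6.04 and 6.31 with saline. The difference of 0.15 ± 0.12 came with 1 high ethanol array and 1 low saline array.

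The remaining endothelial genes split in direction. Itm2a, a membrane protein, read 9.31, 9.45 and 9.21 with ethanol and 9.28, 9.11 and 9.46 with saline, and the groups overlapped over nearly their whole range. Ly6c1, a surface protein, read 4.95, 5.28 and 4.90 against 4.85, 4.95 and 4.86, a difference of 0.16 ± 0.11 (SE) in which ethanol array 2 stood alone. Emcn, a sialomucin of capillaries and veins, stood at 7.54 ± 0.12 and 7.44 ± 0.15 (SD, n = 3 each). Vwf, the clotting factor stored by endothelium, stood at 7.09 ± 0.08 with ethanol and 7.24 ± 0.12 with saline, the lowest endothelial difference at -0.15 ± 0.09 (SE). Egfl7, a secreted matrix protein, differed by -0.09 ± 0.09. Over all 21 endothelial genes the median difference was 0.04, with 14 above 0 and 7 below. None had an unadjusted p under 0.05.

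Among pericyte genes, Rgs5 had the largest difference. It encodes a regulator of G protein signalling that is a classic pericyte marker. Its brighter row read 9.94, 10.24 and 9.96 with ethanol and 9.90, 9.82 and 9.74 with saline. All ethanol arrays lay above all saline arrays, though by a gap of only a few hundredths, and ethanol array 2 was far the highest. The difference was 0.23 ± 0.11 (SE), or 1.17-fold, with a 95% interval from -0.03 to 0.48 (adjusted p = 0.857 in limma, and the unadjusted value also missed 0.05). A second row for Rgs5 read 7.73, 7.91 and 7.71 against 7.34, 7.57 and 7.55. There the groups were also apart, with a difference of 0.30 ± 0.10 (adjusted p = 0.857 in limma, with the unadjusted value under 0.05). These rows measure 1 gene on the same arrays and are no independent replicates. Without ethanol array 2 the brighter row's difference was 0.13. After quantile normalization it was 0.15, and after cyclic loess 0.15, where the groups overlapped. Rgs5 lies on chromosome 1 from 169655501 to 169695813.

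**Figure D2:**
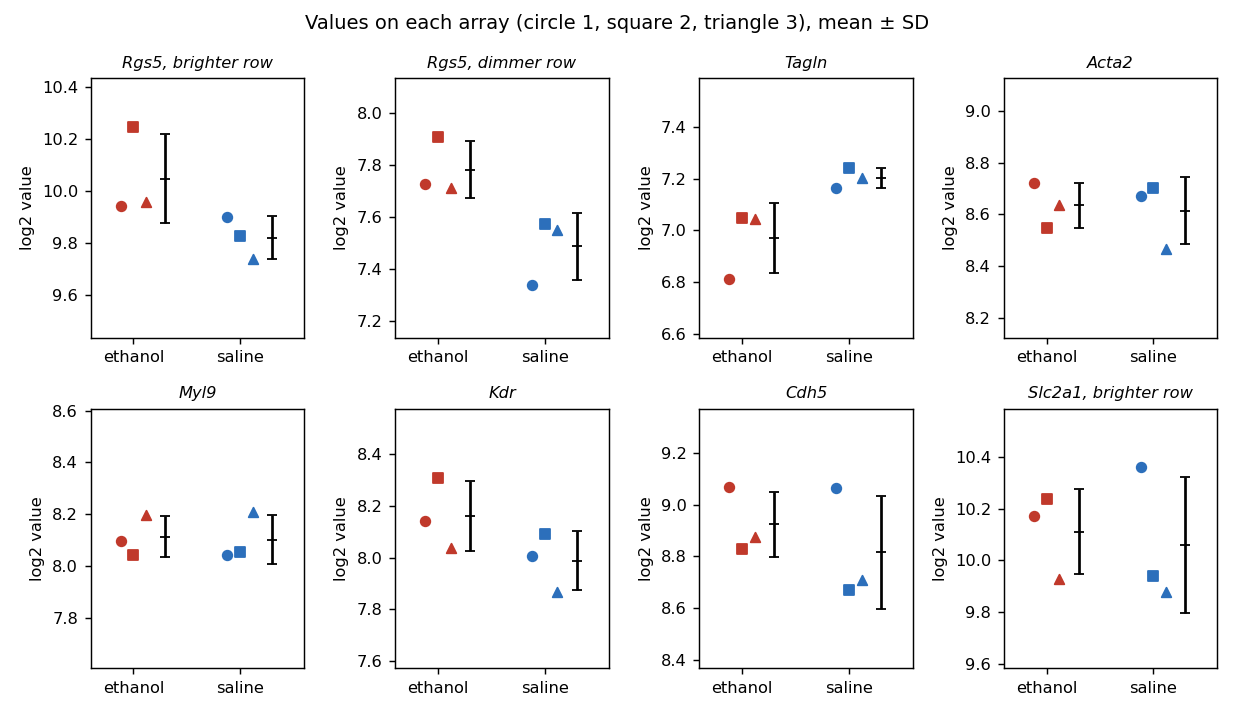
Log2 values (vertical axes, each spanning 1 unit) of 6 genes and of both Rgs5 rows are shown for the 3 ethanol and the 3 saline arrays, with circles for array 1, squares for array 2 and triangles for array 3, and the mean ± SD beside them in black. The groups are apart in both Rgs5 rows and in Tagln, and they overlap in Acta2, Myl9, Kdr, Cdh5 and Slc2a1.

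Other pericyte genes differed less. Vtn, a secreted matrix protein made by brain pericytes, read 9.82, 9.67 and 9.71 with ethanol and 9.71, 9.38 and 9.62 with saline, a difference of 0.17 ± 0.11 (SE). Pdgfrb, the receptor by which pericytes are recruited, stood at 8.51 ± 0.06 and 8.39 ± 0.17 (SD, n = 3 each), a difference of 0.12 ± 0.10. In both genes saline array 2 was the lowest array. Kcnj8 and Abcc9, the pore and the sulfonylurea receptor of the pericyte's ATP-sensitive potassium channel, lie next to each other on chromosome 6 (142564837 to 142571614 and 142587862 to 142702766). Kcnj8 read 7.14, 7.42 and 7.05 with ethanol and 7.23, 7.05 and 7.06 with saline. Abcc9 read 7.74, 7.91 and 7.77 with ethanol and 7.82, 7.71 and 7.46 with saline. Ethanol array 2 was the highest array for both. The differences were 0.09 ± 0.12 for Kcnj8 and 0.15 ± 0.11 for Abcc9. Notch3, the receptor that keeps mural cells mature, stood at 7.49 ± 0.05 and 7.57 ± 0.06. Anpep, a surface peptidase of pericytes, differed by -0.09 ± 0.12, and Des, the intermediate filament desmin, by -0.13 ± 0.09. Of the 8 pericyte and mural genes 5 were above 0 and 3 below, with a median of 0.11.

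The contractile genes of smooth muscle differed in their values. Tagln, the actin-binding protein transgelin, read 6.81, 7.05 and 7.05 with ethanol and 7.17, 7.24 and 7.20 with saline. Every ethanol array lay below every saline array, and ethanol array 1 was the lowest. The difference was -0.23 ± 0.09 (SE), 0.851 times the saline level, with a 95% interval from -0.45 to -0.02 (adjusted p = 0.857 in limma). Acta2, smooth muscle actin, read 8.72, 8.55 and 8.64 with ethanol and 8.67, 8.70 and 8.47 with saline. Its groups overlapped, at 0.02 ± 0.10. Myl9, a regulatory light chain of myosin, read 8.10, 8.04 and 8.20 against 8.04, 8.05 and 8.21, at 0.01 ± 0.09. The intervals of Acta2 (-0.20 to 0.25) and Myl9 (-0.19 to 0.21) both overlapped that of Tagln, and the difference between these genes was not tested. Tagln lies on chromosome 9 from 45929628 to 45936058.

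The vascular genes differed between arrays of the same group. Each value was taken as its distance from the gene's mean over the 6 arrays. On saline array 1, 25 of the 32 genes stood above their own mean, on saline arrays 2 and 3 only 9 each, and on ethanol arrays 1 to 3 19, 18 and 15. Within the saline group array 1 was the highest for 16 of 21 endothelial and 7 of 11 mural genes. The median endothelial distance was 0.12 on saline array 1 and -0.03 and -0.06 on saline arrays 2 and 3, against 0.02, 0.07 and -0.05 on ethanol arrays 1 to 3. The median mural distance was 0.07, -0.05 and -0.07 on the saline arrays and -0.01, -0.00 and 0.02 on the ethanol arrays. The saline SD was the larger for 21 of 32 genes, beside 13462 of all 22180. Over all genes the median distance ran from -0.03 (saline array 2) to 0.02 (saline array 1). Among the 8748 genes of like level it was -0.07 on saline array 2 and 0.05 on ethanol array 2, at least as far from 0 as the -0.04 and 0.02 of the 32 vascular genes, and 0.01 on saline array 1, where the vascular genes stood at 0.08. Whether any of these distances is particular to vascular genes was not tested.

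**Figure D3:**
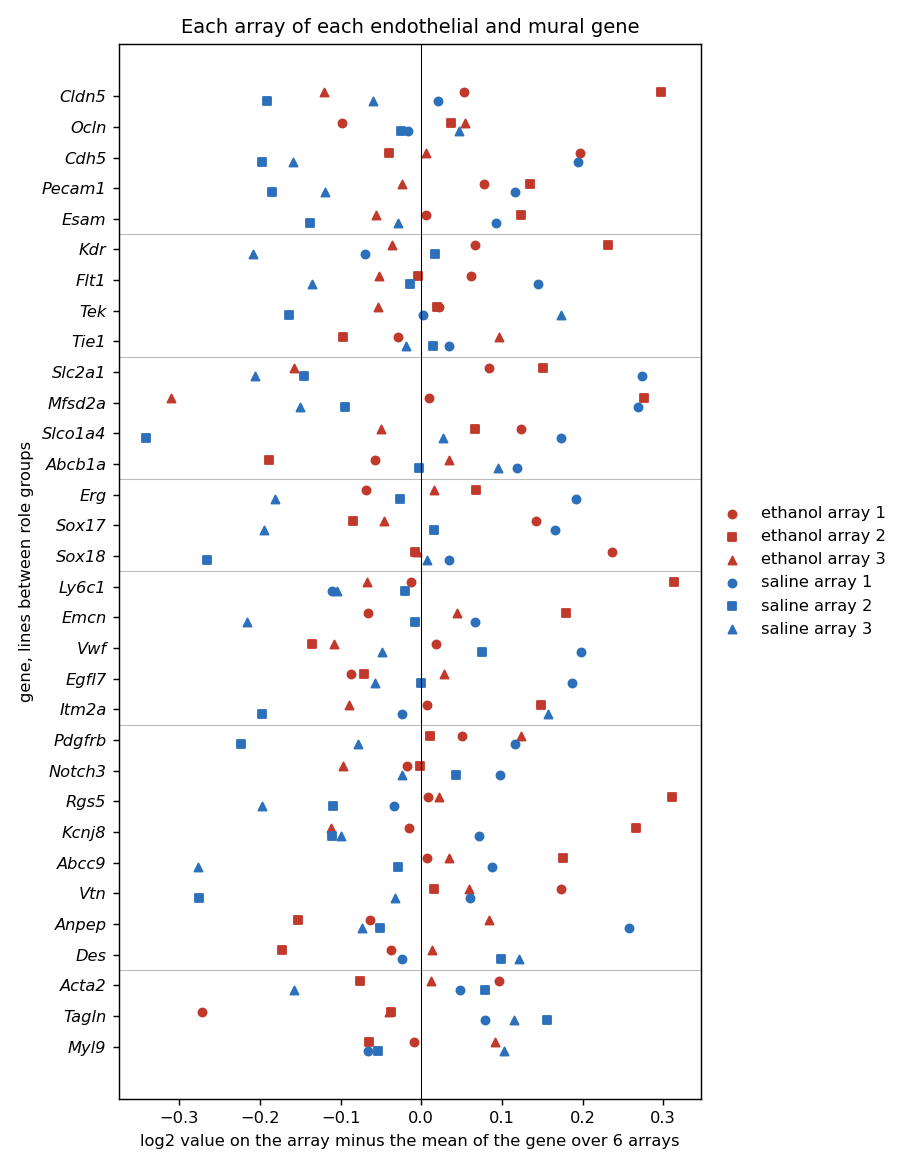
The distance of each array from the gene's mean (horizontal axis, log2) is plotted for the 32 genes (vertical axis, grouped by role), with red for ethanol and blue for saline arrays and the symbol for the array number. Saline array 1 (blue circles) lies right of 0 for 25 of 32 genes, and red and blue separate fully for Rgs5 and Tagln alone.

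Without saline array 1 the median difference of the 32 genes was 0.11, and without saline array 2 it was -0.01. For the endothelial genes these medians were 0.11 and -0.01 as well, and for the mural genes 0.05 and 0.04. Markers of other cells were set beside this. Of 13 microglia and macrophage genes the median distance was 0.12 on saline array 1 and lay between -0.07 and -0.01 on the other arrays. Their median level ran from 7.46 to 7.60 with ethanol and from 7.34 to 7.74 with saline, and the brightest were C1qb (8.81) and Cx3cr1 (8.57). The 15 hippocampal neuron genes were also highest on saline array 1, at 0.08, against -0.03 to -0.01 on the other arrays. Of 12 astrocyte genes, whose endfeet ensheath the vessels, it was 0.06 on saline array 1, 0.16 on ethanol array 2 and -0.13 and -0.10 on saline arrays 2 and 3. Their median level ran from 10.29 to 10.51 with ethanol and from 10.15 to 10.38 with saline, and the brightest were Aldoc (12.84) and Slc1a3 (12.05). Oligodendrocyte genes (9 measured) ran from -0.20 on ethanol array 3 to 0.20 on ethanol array 2. Choroid plexus genes (8 measured) ran from -0.18 on ethanol array 2 to 0.26 on ethanol array 3, and fibroblast genes (14 measured) from -0.11 to 0.13 on the same 2 arrays. The brightest of these lists were Mobp (12.03) and Cldn11 (11.95), Ttr (13.22) and Kl (9.02), and Igf2 (9.69) and Dcn (9.03). By the olfactory receptor percentile of 6.98, 5 of the 13 microglial genes (Pf4, Cd163, Aif1, C1qc and Mrc1) and 1 of the 14 fibroblast genes (Lum) were not above background, and all measured genes of the astrocyte, oligodendrocyte and choroid plexus lists were. The part of these cells in the vascular values was not tested. Of the red blood cell list only Slc4a1 had a row used here, between 7.62 and 8.09.

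**Figure D4:**
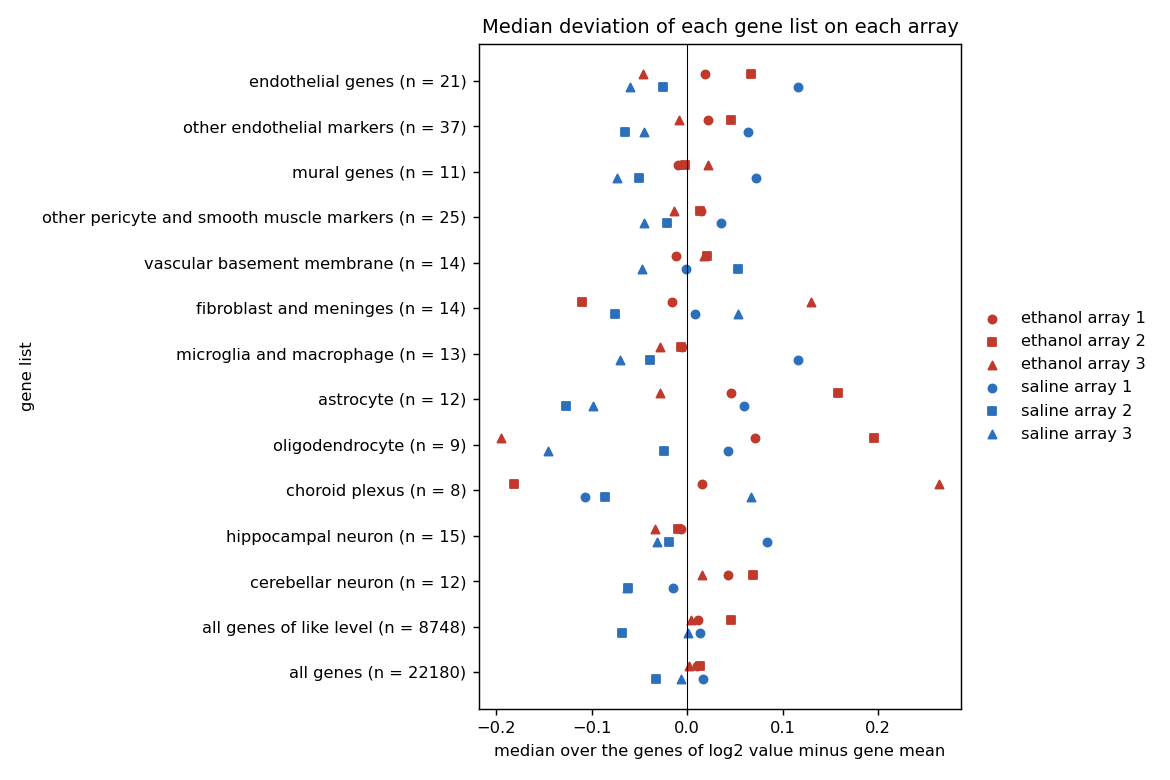
The median distance from the gene mean (horizontal axis, log2) is shown for each gene list (vertical axis, n is the number of genes) on each array, with red for ethanol, blue for saline and the symbol for the array number. Saline array 1 is the highest array for both endothelial lists, both mural lists, the microglial and hippocampal neuron lists and, by a small margin, all genes. Genes of like level, the central range of the vascular levels, lie lowest on saline array 2 (-0.07) and highest on ethanol array 2 (0.05).

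Other genes of the vascular wall were taken from 5 further lists. Of 37 other endothelial markers, 24 were above 0 and 13 below (median 0.03), and 0 had an unadjusted p under 0.05. The smallest p was that of Slco1c1, a thyroid hormone transporter of the barrier, at 0.19 ± 0.08 (SE, adjusted p = 0.857 in limma). The groups were apart for 1 gene higher with ethanol, Slco1c1, and for 1 lower, Lmo2 (-0.15). Of all genes 5.74% were apart and higher and 4.72% apart and lower. Of 25 other pericyte and smooth muscle markers, 13 were above 0 and 12 below (median 0.01). Gja4, a connexin of arterial endothelium and smooth muscle, read 6.84, 6.75 and 6.86 with ethanol and 6.74, 6.56 and 6.52 with saline. Its groups were apart by about a hundredth, at 0.21 ± 0.09 (SE; adjusted p = 0.857 in limma), and its mean of 6.71 lay below the olfactory receptor percentile. The groups were also apart for Itga8, an integrin, at 0.09 and for Higd1b, a pericyte marker, at -0.15, both dimmer still. That made 3 of 25, with 2 higher and 1 lower, beside 10.5% of all genes. The smooth muscle genes Myh11 and Cnn1, which encode myosin heavy chain and calponin, read -0.07 and -0.06 for the difference. Of 14 basement membrane genes, 10 were above 0 (median 0.02), and none had an unadjusted p under 0.05.

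Of 32 ligands and further receptors, 26 were above 0, or 81.2%, with 0 called by limma. Their median of 0.04 equalled that of the genes in the central range of the vascular levels, of which 68.4% were above 0. That range was cut on the 32 vessel wall genes and not on this list, whose levels ran from 5.36 to 9.90. Over all genes the median was 0.02, with 57.2% above 0. Vegfa and Vegfb, ligands of Kdr and Flt1, differed by 0.02 ± 0.11 and 0.04 ± 0.10 (SE). Angpt1, the ligand that activates Tek, differed by 0.02 ± 0.10. Angpt2, its mostly opposing relative, read 5.96, 5.96 and 5.93 with ethanol and 6.21, 6.22 and 6.03 with saline. Angpt2 was lower on every ethanol array, at -0.20 ± 0.08 (adjusted p = 0.857 in limma), and was dim. Dll1, a Notch ligand, read 6.92, 7.01 and 6.83 against 6.79, 6.70 and 6.70, at 0.19 ± 0.08 (adjusted p = 0.857 in limma). Its mean of 6.83 lay below the olfactory receptor percentile. Pdgfb, the ligand of Pdgfrb, differed by -0.05 ± 0.10. At an unadjusted p under 0.05 this list held 1 gene higher and 1 lower, where 1.2% of all genes were higher and 1.98% lower.

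Of 16 genes of the Wnt signal that induces the barrier, 11 were above 0 (median 0.03). Ndp, the ligand norrin, which acts on brain endothelium through Fzd4, read 8.33, 8.19 and 8.01 with ethanol and 7.79, 7.81 and 7.96 with saline, with the groups apart. Its difference was 0.32 ± 0.10 (SE; adjusted p = 0.857 in limma). Ctnnb1 and Foxq1, the Wnt effector and a downstream factor, also had groups apart, at 0.11 and 0.09. That made 3 of 16, all higher, beside 5.74% of all genes apart with ethanol higher, and Foxq1, at 6.96, lay below the olfactory receptor percentile. The norrin receptor Fzd4 and the coreceptor Tspan12 differed by 0.02 ± 0.07 and 0.08 ± 0.11 (SE). Sox7, an endothelial factor related to Sox17 and Sox18, stood at -0.22 ± 0.12, and its mean of 6.79 also lay below that percentile. Aqp4, the water channel of astrocyte endfeet on the vessels, belongs to the astrocyte list and not to this one. Aqp4 read 11.33, 11.37 and 11.26 with ethanol against 11.04, 11.09 and 11.04 with saline. Its groups were apart (0.26 ± 0.07 SE, adjusted p = 0.857 in limma). Of the 12 astrocyte genes, 11 were above 0, or 91.7% (median 0.10), where 57.2% of all genes were. This list was bright, with a median level of 10.33. In 2 other bright lists the share was also high, 88.9% for oligodendrocyte and 83.3% for cerebellar neuron genes. It was 75% for choroid plexus, 50% for fibroblast, 46.2% for microglial and 40% for hippocampal neuron genes, whose median levels were lower. Whether the astrocyte share is particular to these genes was not tested.

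Rgs5 and Tagln kept their directions in all 19 other settings tried. Rgs5 ranged from 0.13 to 0.30, with an unadjusted p under 0.05 in 4 of them, 1 of which takes its second row. Tagln ranged from -0.27 to -0.16, with an unadjusted p under 0.05 in 10, of which 2 change only the choice of row and so leave its single row as it was. The smallest adjusted p of any of the 32 genes in any setting was 0.541 (Pecam1, without saline array 1).

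**Figure D5:**
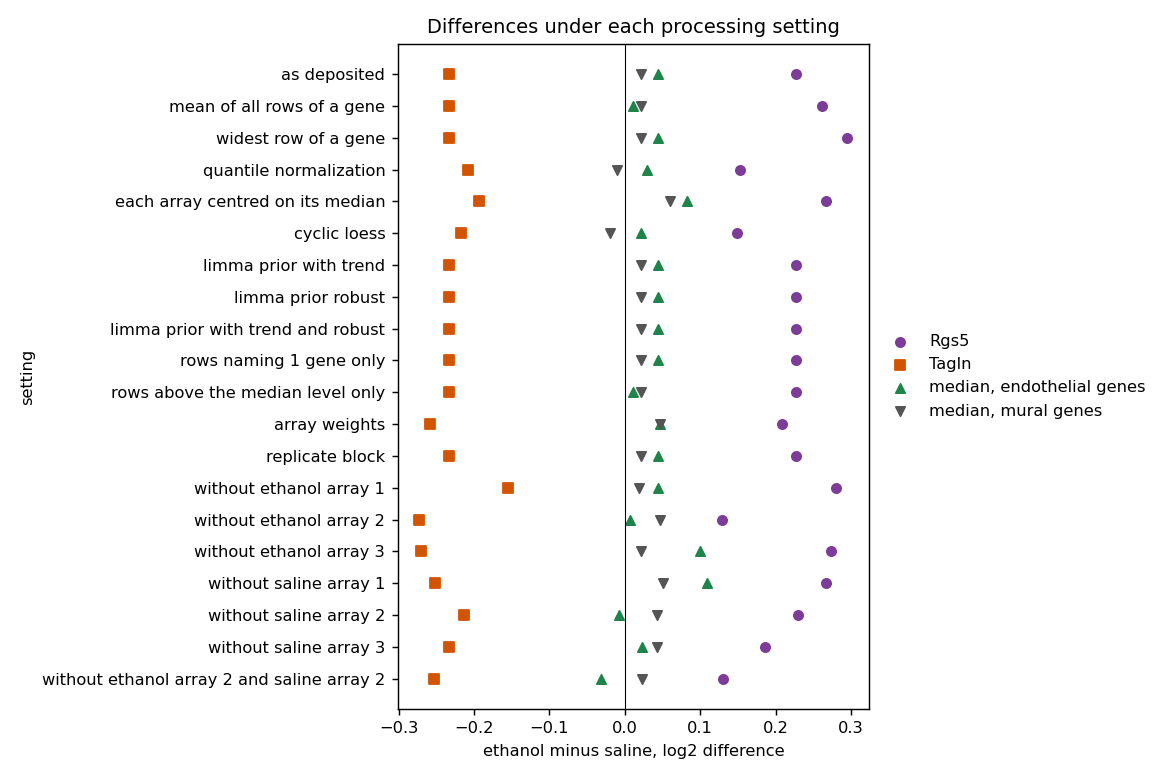
The difference between ethanol and saline (horizontal axis, log2) of Rgs5, Tagln and the medians of the 21 endothelial and 11 mural genes is drawn for each processing setting (vertical axis). Rgs5 stays right of 0 and Tagln left of it in every setting, whereas the endothelial median crosses 0 in 2 settings that leave out saline array 2, and the mural median crosses it after quantile normalization and cyclic loess.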

How the data were processed

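RNA of 6 pools of 3 mice was hybridized to 1 array each, from 200 ng of total RNA per the labels' protocols. The authors deposited log2 expression values for 41345 probe rows. That the scale is log2 was inferred from the values, which all 6 arrays spread over alike. Background correction, summarization and normalization are not given in the sources used here. The genome build was mm 10, per the submitters' processing notes. Platform annotation named 1 gene for 23521 rows. Every row was fitted with limma 3.58.1 in R 4.3.3 (lmFit, eBayes, no covariate, two-sided), with Benjamini-Hochberg adjustment over all rows, a threshold of 0.05 and no filter. The fit had 4 residual and 2.94 prior degrees of freedom and was tested on simulated data. The looser screen (unadjusted p under 0.05, 1.2-fold) served as a description. Nothing beyond array-to-array variation of pools enters the p-values, and 3 arrays per group limit the precision. An exact permutation test of 3 against 3 cannot go below 0.1.

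The gene list, the further lists and the naming rule were chosen with earlier results of these data known. Array values are printed for genes with an unadjusted p under 0.05 or groups apart, for the widest, brightest and dimmest genes, and for at least 1 gene per role; further genes were added for comparison after their values were seen. From each other list up to 3 genes with the smallest p are printed where it is under 0.05, and others named there were chosen after their values were seen. Alternatives covered scaling, the limma prior, filters, weights, the row per gene, the replicate number as a block, and leaving out arrays. Promoters came from RefSeq.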

Additional observations from a re-analysis of the deposited data

How the results depend on the processing

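With limma 0 rows were called in every setting but 1: leaving out 1 array gave 0 to 1 (the 1 without saline array 3, naming none of these genes), and 0 were called at an adjusted p of 0.1. The looser screen held 580 rows higher and 1096 lower with ethanol. It held 890 higher with each array centred on its median, a setting that lifts the median of all rows from 0.00 to 0.04, and 751 lower. It held 190 and 378 among rows naming 1 gene, 266 and 368 among rows above the median level, and 90 and 212 at 1.5-fold, each smaller by construction. With single arrays left out, the higher rows numbered from 581 to 996 and the lower ones from 835 to 2176, both highest without saline array 1. Rows whose groups did not overlap numbered 4575, or 2454 and 2192 under those 2 filters.

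The median difference of the 32 genes, 0.03, ranged from -0.0051 (without saline array 2) to 0.11 (without saline array 1) when 1 array was left out. Without ethanol array 2 and saline array 2 together, a setting chosen after the data were seen, the endothelial median was -0.03 and the mural median 0.02. The mural median was -0.01 after quantile normalization and -0.02 after cyclic loess. Of 606 values of single genes in other settings 55 changed sign, in 16 of the 32 genes, none of them called anywhere. Deviations of same-numbered arrays correlated at 0.10, -0.06 and 0.04. These values cannot decide whether equal array numbers share litters or handling, since which arrays share litters is not stated. With the replicate block limma also called 0 rows, and its unadjusted p for Tagln was 0.0502.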
